A study of Mus musculus with 9 samples.

Results

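The natriuretic peptide system was followed through 8 genes of the mouse ventricle: the peptide genes Nppa, Nppb and Nppc, the processing enzymes Corin and Furin, and the receptors Npr1, Npr2 and Npr3. They were chosen by name, as the ligands, convertases and receptors of 1 hormone system, out of the 38293 genes in the count table, by a rule that reads no measured value but was set with earlier results of these data known. All 8 had reads, and 7 of 8 passed the filter on low counts and could be tested among 15318 genes. Nppc was the exception and is given by its reads.

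The natriuretic peptides of the heart are hormones that cardiomyocytes release when its wall is stretched. Nppa encodes the precursor of atrial natriuretic peptide (ANP), which the membrane protease corin cuts into the active hormone. Nppb encodes the precursor of B-type natriuretic peptide (BNP), a substrate of furin and corin, and Nppc encodes C-type natriuretic peptide (CNP), made mainly by endothelial and other cells outside the heart muscle. ANP and BNP bind the guanylyl cyclase receptor encoded by Npr1, CNP binds the related cyclase encoded by Npr2, and both receptors make the second messenger cyclic GMP. The receptor encoded by Npr3 has no cyclase domain and removes all 3 peptides from the circulation. In the ventricle, Nppa is a gene of the fetal heart that is mostly silenced after birth, and both Nppa and Nppb are widely used as markers of cardiac stress.

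RNA was measured in whole ventricles of mice at postnatal day 7, to ask what the loss of Arid1a, which encodes a subunit of the chromatin remodeller SWI/SNF, changes in the neonatal heart. The 5 control libraries came from Arid1a f/f littermates with floxed Arid1a and no Cre, and every one so labelled was used, as in a legend of the study, although its methods give 1 fewer. The 4 cKO libraries came from aMHC-Cre;Arid1a f/f mice, in which the αMHC promoter drives Cre recombinase in cardiomyocytes. Both groups are homozygous for the floxed allele, so the presence of Cre and the loss of Arid1a cannot be told apart in this design. The libraries also hold RNA of endothelial cells, fibroblasts and other cells in which the αMHC promoter is not active. In such bulk samples, fewer cells of a type and less RNA per cell cannot be told apart. The labels number the libraries, and the study describes its replicates as biological. A legend of the study counts 5 control and 4 cKO hearts for these data. No source used here ties a library to a named animal, so the p-values below measure the spread between these libraries.

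Total counts lay between 31011055 and 40073801 per library. Arid1a itself was at 128.05 to 148.1 CPM (counts per 1000000 counts, scaled by TMM) in controls and at 100.3 to 112.9 CPM in cKO libraries, and the groups did not overlap (log2 fold change -0.39, edgeR adjusted p = 0.0013). The libraries fell into 2 sets by the ribosomal protein gene copy Rps3a3: 5 libraries (control replicates 1 and 2, cKO replicates 1 to 3) had 0.345 to 0.521 CPM, and the other 4 (control replicates 3 to 5, cKO replicate 4) had 99.7 to 112.3 CPM. The labels give no batch that matches this split, so the changes of the tested members are also given within each set, called Rps3a3-low and Rps3a3-high. The Rps3a3-high set has 1 cKO library, so a fit within it assumes that this library varies like the controls. Within the Rps3a3-low set alone, Arid1a was at -0.33 and did not pass (edgeR adjusted p = 0.0822). Markers of ventricular cardiomyocytes such as Myl2, Myl3 and Tnni3 were present in every library, and the 10 listed cardiomyocyte markers summed to 52897 to 62573 CPM in controls and 47481 to 54230 CPM in cKO libraries.

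Nppa and Nppb are neighbours on mouse chromosome 4, transcribed from the same strand with 13.5 kb between them. Nppa (ENSMUSG00000041616) lies at 148000722 to 148002079 and Nppb (ENSMUSG00000029019) at 147985788 to 147987205, both on the plus strand of GRCm38. Stretches next to their starts are printed because these are the genes that changed most and because their promoters hold binding motifs of cardiac transcription factors. The sequences are from RefSeq (GRCm38.p6), read 5′ to 3′ on the plus strand. The first covers chr4:148000472-148000721, the 250 bases before the Nppa start, and its capitals mark, in order, a T-box motif (AGGTGTGA, here on the minus strand), an NKE motif (TNAAGTG, bound by NKX2-5) and a GATA motif. The second covers chr4:147985793-147985822 at Nppb, and its capitals mark an MCAT motif (CATTCC, bound by TEAD factors, here on the minus strand) and a pair of GATA motifs.
Nppa: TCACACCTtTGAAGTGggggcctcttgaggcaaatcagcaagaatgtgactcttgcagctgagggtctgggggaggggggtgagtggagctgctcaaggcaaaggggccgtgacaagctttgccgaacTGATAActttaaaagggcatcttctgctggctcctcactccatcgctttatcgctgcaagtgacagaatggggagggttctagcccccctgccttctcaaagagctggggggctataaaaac
Nppb: caGGAATGcagcTGATAAatcagAGATAAc

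The motifs were searched on both strands of RefSeq windows of 300 bases, from 250 before to 50 after a gene's start, and the 8 genes had 9 such windows. The GATA motif was taken as GATA with an A or T before it and an A or G after it. It is common, in 29.8% of 32851 mouse promoter windows, whereas the T-box motif was in 1.28%, the NKE motif in 11.5%, the MCAT motif in 14.7% and the CArG box, the element bound by serum response factor, in 1.63%. At Nppa the T-box motif began at position -250, the NKE motif at -241 and the GATA motif at -122 from the start. At Nppb the MCAT motif began at -105 and the GATA motifs at -95 and -84, counted from the RefSeq start, which lies inside the first exon that GENCODE annotates for Nppb. Apart from 2 NKE motifs at Furin, no window of the other 6 genes held these letters. A match describes the sequence only and does not show that a factor binds there.

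Nppa was the member that changed most. It measured 121.4, 107.7, 101.5, 123.3 and 115.4 CPM over control replicates 1 to 5 and 710.9, 1840.5, 1902.1 and 2431.6 CPM over cKO replicates 1 to 4. Every cKO library lay far above every control, and cKO replicate 1 stood well below the other 3. Set against the control mean, cKO replicate 1 was 6.24-fold higher, replicate 2 was 16.2-fold, replicate 3 was 16.7-fold and replicate 4 was 21.4-fold. The controls varied little, with a coefficient of variation of 8.06%, against 42.1% among the cKO libraries. The gene took 0.010% to 0.0121% of all counts in control libraries and 0.0724% to 0.251% in cKO libraries. By CPM per kb of exon, a scale on which genes can be ranked, Nppa stood between ranks 223 and 289 of 36429 annotated genes in controls and between ranks 10 and 25 in cKO libraries.

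The rise of Nppa was 3.92 on the log2 scale (SE 0.32, edgeR adjusted p = 0.00012), and only 8 of the 15318 genes tested had a higher log2 fold change. It was present in both library sets, at 3.56 in the Rps3a3-low libraries and 4.42 in the Rps3a3-high libraries (log2 difference of means). The test within the Rps3a3-low libraries alone, with 2 controls and 3 cKO libraries, gave a log2 fold change of 3.70 and an adjusted p of 0.0625. Over the 20 alternative fits the adjusted p ranged from 5.6e-44 to 0.0625.

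Nppb rose less, and evenly. It measured 175.8, 124.7, 153.9, 125.95 and 158.8 CPM over control replicates 1 to 5 and 353.6, 342.2, 385.5 and 387.9 CPM over cKO replicates 1 to 4. The lowest cKO library lay clearly above the highest control, and no cKO library stood apart from the rest. The means were 147.8 ± 22.1 CPM in the control group (SD, n = 5) and 367.3 ± 22.9 CPM in the cKO group (SD, n = 4), and the fitted log2 fold change was 1.31 (SE 0.10, edgeR adjusted p = 5.34e-06). Unlike Nppa, Nppb had a larger coefficient of variation in controls (14.9%) than in cKO libraries (6.24%). The library lowest for Nppa among the cKO, replicate 1, was not the lowest for Nppb.

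Nppa and Nppb therefore changed by unequal amounts, which the ratio of their read counts within each library measures without any scaling. Nppa had, over control replicates 1 to 5, 0.690, 0.864, 0.660, 0.979 and 0.727 reads per read of Nppb, and over cKO replicates 1 to 4, 2.01, 5.38, 4.93 and 6.27. Nppb thus gave more reads than Nppa in every control, and Nppa gave more in every cKO library. The log2 ratio was -0.37 ± 0.24 in controls (SD, n = 5) and 2.10 ± 0.74 in cKO libraries (SD, n = 4), a difference of 2.46 or 5.52-fold. A two-sided exact permutation test gave p = 0.00794, the smallest that 126 splits allow, and 0.00794 adjusted over the 2 ratios tested. With labels exchanged only within the library sets, the exact permutation p was 0.025, the smallest of 40 splits.

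Nppc (ENSMUSG00000026241, chromosome 1, 86666291 to 86670571, minus strand), the gene for CNP, was close to the floor of the assay. Over control replicates 1 to 5 it had 5, 16, 7, 5 and 9 reads, and over cKO replicates 1 to 4 it had 7, 11, 17 and 8. The groups overlapped over nearly their whole range. Without the filter on low counts its log2 fold change was 0.23 (SE 0.46, edgeR adjusted p = 0.808), so no difference was seen at these read numbers, with an error on the log2 scale larger than the change.

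**Figure D1:**
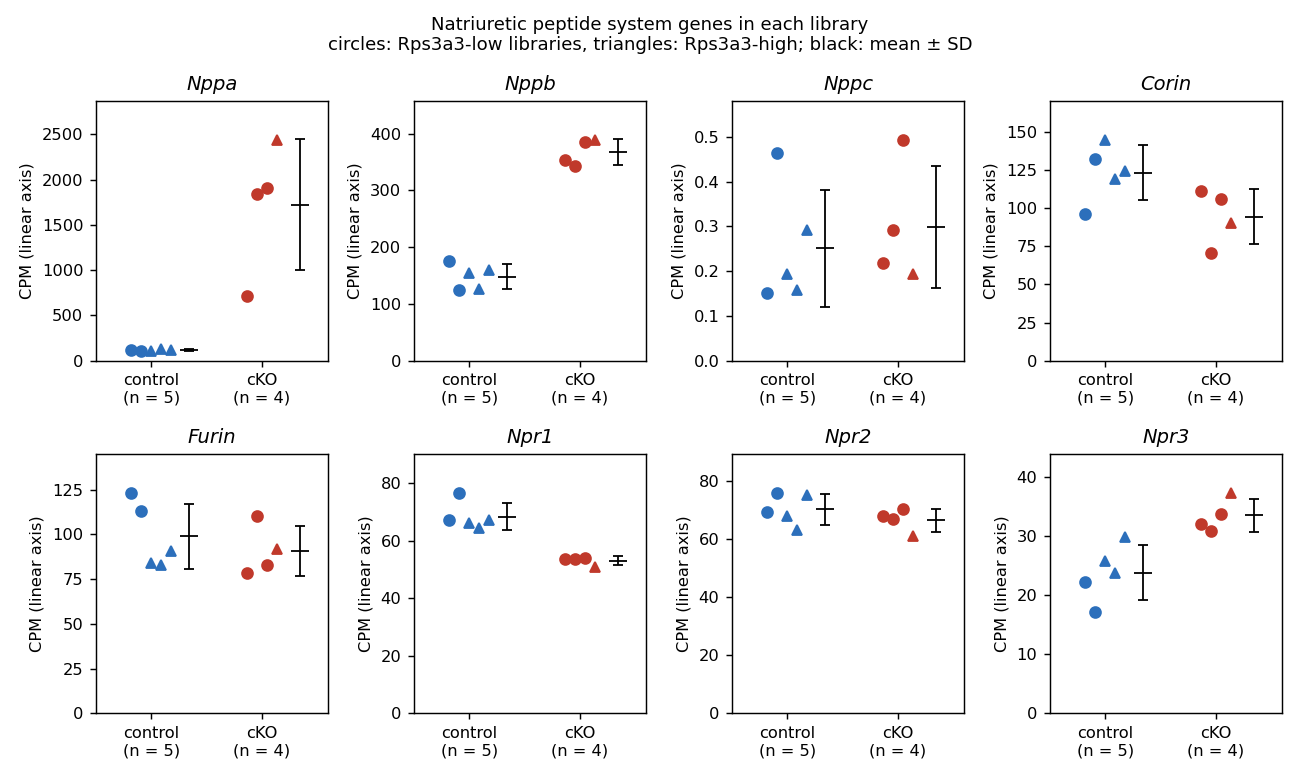
Level of the 8 genes in each library, in CPM on a linear axis that starts at 0, for 5 control (blue) and 4 cKO (red) libraries. Circles are Rps3a3-low and triangles Rps3a3-high libraries, and black bars give the mean ± SD. The groups are apart for Nppa, Nppb, Npr1 and Npr3 and overlap for Nppc, Corin, Furin and Npr2.

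Neither convertase gene passed the test. Corin (ENSMUSG00000005220, chromosome 5, 72300025 to 72504473, minus strand) measured 96.0, 132.5, 144.6, 119.0 and 124.8 CPM over control replicates 1 to 5 and 111.3, 70.8, 105.97 and 90.1 CPM over cKO replicates 1 to 4. All cKO libraries lay below control replicates 2 to 5, but control replicate 1 fell among them. The mean was 123.4 ± 18.0 CPM in the control group (SD, n = 5) and 94.5 ± 18.2 CPM in the cKO group (SD, n = 4), a log2 fold change of -0.38 that did not pass the test (SE 0.14, edgeR adjusted p = 0.0922). It passed in 3 of 20 alternative fits: in DESeq2 (-0.39, adjusted p = 0.0385), without control replicate 1 (-0.46, edgeR adjusted p = 0.0331) and in the Rps3a3-high libraries alone, where 1 cKO library enters (-0.52, edgeR adjusted p = 0.0059). The adjusted p ranged from 0.0059 to 0.620 over these 20 fits.

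Furin (ENSMUSG00000030530, chromosome 7, 80388585 to 80405436, minus strand), a protease of the secretory pathway with many substrates beside the BNP precursor, measured 123.0, 113.3, 84.2, 82.95 and 90.8 CPM over control replicates 1 to 5 and 78.6, 110.2, 82.7 and 91.9 CPM over cKO replicates 1 to 4. The groups overlapped, and both Rps3a3-low controls lay above all 3 Rps3a3-high controls. Its log2 fold change of -0.12 did not pass the test (SE 0.14, edgeR adjusted p = 0.602) and had opposite signs within the sets, at -0.40 where Rps3a3 was low and 0.096 where it was high.

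Of the receptors, Npr1 was lower and Npr3 higher in cKO libraries, and Npr2 did not pass the test. Npr1 (ENSMUSG00000027931, chromosome 3, 90450591 to 90465866, minus strand), the cyclase receptor of ANP and BNP, measured 67.3, 76.6, 66.4, 64.4 and 67.2 CPM over control replicates 1 to 5 and 53.8, 53.6, 54.1 and 50.8 CPM over cKO replicates 1 to 4. All cKO libraries lay below all controls, and their values were close together. The means were 68.4 ± 4.73 CPM in the control group (SD, n = 5) and 53.1 ± 1.52 CPM in the cKO group (SD, n = 4), and the log2 fold change of -0.37 passed the test (SE 0.066, edgeR adjusted p = 0.0027). It passed in all 20 alternative fits, with log2 fold changes from -0.42 to -0.32 and adjusted p from 1.9e-06 to 0.0386.

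Npr3 (ENSMUSG00000022206, chromosome 15, 11839896 to 11907287, minus strand), the clearance receptor, measured 22.2, 17.2, 25.7, 23.8 and 29.9 CPM over control replicates 1 to 5 and 32.0, 30.9, 33.8 and 37.3 CPM over cKO replicates 1 to 4. The groups did not overlap, though the highest control lay close to the lowest cKO library. The means were 23.8 ± 4.65 CPM in the control group (SD, n = 5) and 33.5 ± 2.77 CPM in the cKO group (SD, n = 4), and Npr3 rose by 0.49 on the log2 scale (SE 0.13, edgeR adjusted p = 0.0224). The rise no longer passed without cKO replicate 3 (0.49, edgeR adjusted p = 0.0548) or without cKO replicate 4 (0.44, edgeR adjusted p = 0.0688), and the adjusted p ranged from 0.0011 to 0.0688 over the 20 alternative fits.

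Npr2 (ENSMUSG00000028469, chromosome 4, 43631935 to 43651244, plus strand), the cyclase receptor of CNP, measured 69.5, 75.9, 68.1, 63.2 and 75.4 CPM over control replicates 1 to 5 and 68.1, 67.0, 70.3 and 61.1 CPM over cKO replicates 1 to 4. The groups overlapped (log2 fold change -0.08, SE 0.072, edgeR adjusted p = 0.499). It passed in 0 of the 20 alternative fits.

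The balance of the cyclase receptor against the clearance receptor was measured as the ratio of Npr1 to Npr3 reads. Over control replicates 1 to 5 the ratio was 3.03, 4.44, 2.58, 2.70 and 2.24, and over cKO replicates 1 to 4 it was 1.68, 1.73, 1.601 and 1.36. Npr1 gave more reads than Npr3 in every library, and every cKO library had a lower ratio than every control. This separation follows from the values already given, as Npr1 was lower and Npr3 higher in every cKO library than in every control. The test of the ratio is therefore not separate evidence. The log2 ratio was 1.54 ± 0.37 in controls (SD, n = 5) and 0.67 ± 0.15 in cKO libraries (SD, n = 4), a difference of -0.88 (two-sided exact permutation p = 0.00794, 0.00794 adjusted over the 2 ratios, and 0.025 with labels exchanged within library sets, the smallest p each design allows).

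**Figure D2:**
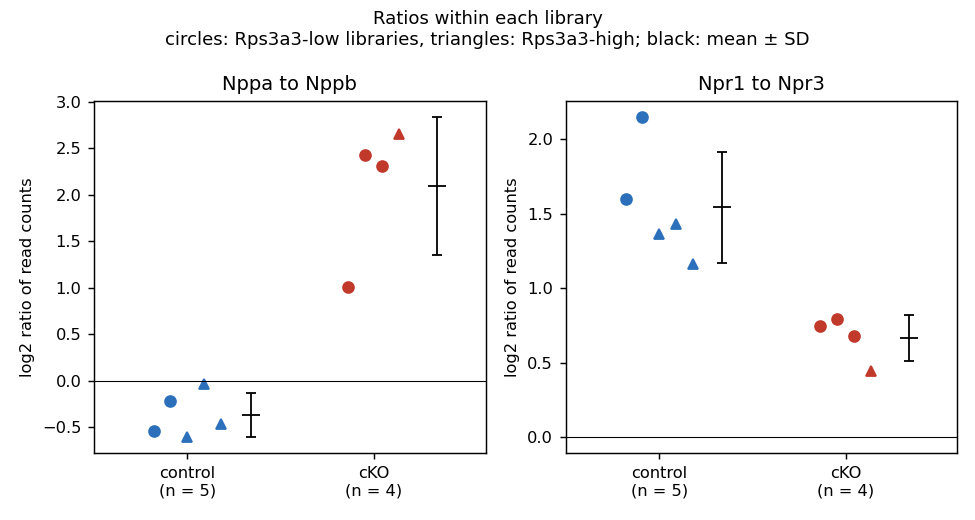
Log2 ratio of read counts within each library, Nppa to Nppb on the left and Npr1 to Npr3 on the right, for control (blue) and cKO (red) libraries. Circles are Rps3a3-low and triangles Rps3a3-high libraries, and black bars give the mean ± SD. The Nppa to Nppb ratio is below 0 in all 5 controls and above 0 in all 4 cKO libraries, while the Npr1 to Npr3 ratio stays above 0 in all 9.

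In all, 2 of the 7 tested members, Nppa and Nppb, were called, which means a change of more than 1.5-fold with an adjusted p under 0.05. Over all genes tested 6.72% were called, 4.01% higher and 2.72% lower in cKO libraries. At an adjusted p under 0.05 with no fold threshold, 4 of the 7 passed, with Nppa, Nppb and Npr3 higher and Npr1 lower, where 16.3% of all genes passed, 8.25% higher and 8.03% lower. The same 4 genes were those whose groups did not overlap, which held for 16.7% of all genes tested, 8.16% higher and 8.58% lower. Exact permutation tests of single genes over the 8 members gave p = 0.00794 for Nppa, Nppb and Npr1 (0.0212 adjusted over the 8), 0.0159 for Npr3 (0.0317 adjusted) and 0.0635 for Corin (0.102 adjusted). The remaining exact permutation p-values were 0.246 for Npr2, 0.484 for Furin and 0.556 for Nppc before adjustment. The log2 differences of means within the sets had the same sign for the tested members not yet given this way. They were 1.28 where Rps3a3 was low and 1.41 where it was high for Nppb, -0.41 and -0.37 for Npr1, 0.70 and 0.49 for Npr3, -0.08 and -0.17 for Npr2, and -0.26 and -0.52 for Corin.

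**Figure D3:**
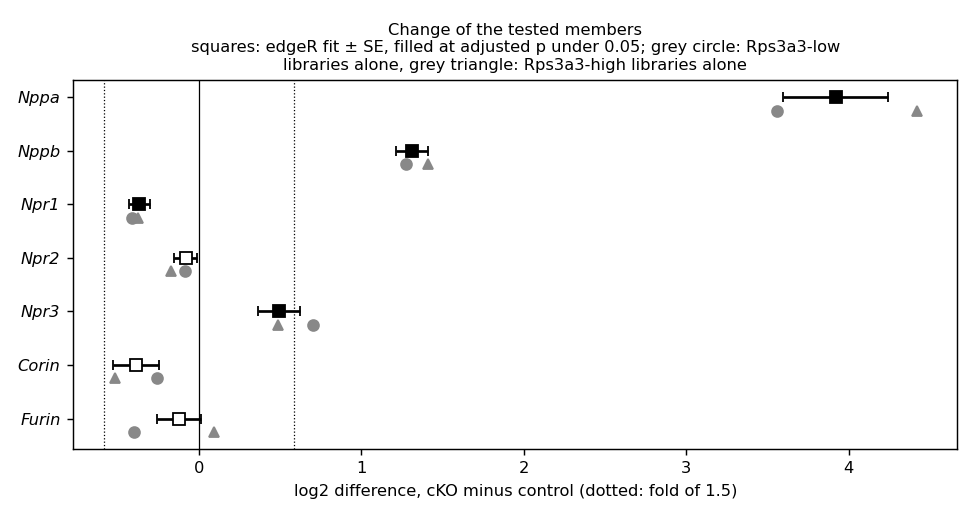
Log2 difference between cKO and control libraries for the 7 tested members. Squares give the edgeR fit ± SE, filled at an adjusted p under 0.05; grey circles and triangles give the difference of means within the Rps3a3-low and Rps3a3-high libraries, and dotted lines mark a 1.5-fold change. Nppa at 3.92 and Nppb at 1.31 lie beyond the dotted lines in both sets, and Furin is the tested member whose sets have opposite signs.

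Ordered by level per kb of exon, Nppa and Nppb led in both groups and changed places, and Nppc was last in both. In controls Nppb was highest (mean 189.3 CPM per kb), followed by Nppa (131.6), Corin (22.8), Npr2 (15.1), Npr1 (14.3), Furin (10.8), Npr3 (2.53) and Nppc (0.241). Each of these neighbours was apart over the 5 libraries except Npr2 and Npr1, whose ranges overlapped. In cKO libraries the order was Nppa (1989.9 CPM per kb), Nppb (470.3), Corin (17.5), Npr2 (14.3), Npr1 (11.1), Furin (9.90), Npr3 (3.57) and Nppc (0.287). There the ranges of Corin and Npr2 overlapped, as did those of Npr1 and Furin.

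The other genes of the pathway were examined as a list, which held 40 genes of peptide processing and breakdown, cyclic GMP synthesis, its effectors, its breakdown and export, a further ligand of the clearance receptor and partners in secretory granules. Of these, 39 were in the table and 34 could be tested. At an adjusted p under 0.05, 4 were higher and 2 lower in cKO libraries and 28 did not pass, where 16.3% of all genes passed, and the median log2 fold change was -0.04 (0.0094 over all genes). With the 1.5-fold threshold, 2 were called higher and 2 lower, beside 4.01% and 2.72% of all genes.

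The peptide-degrading enzyme neprilysin, encoded by Mme, fell. It measured 4.72, 6.31, 6.84, 9.72 and 8.96 CPM over control replicates 1 to 5 and 3.86, 3.31, 3.30 and 2.49 CPM over cKO replicates 1 to 4. All cKO libraries lay below all controls, and the Rps3a3-high controls were the highest. The log2 fold change was -1.17 (SE 0.21, edgeR adjusted p = 0.0029), and within the Rps3a3-low libraries alone it was -0.66 and did not pass (edgeR adjusted p = 0.118). The other 6 tested genes of processing and breakdown did not pass, among them Dpp4 (log2 fold change -0.38, edgeR adjusted p = 0.068), Ide (0.29, adjusted p = 0.280) and Pcsk6, the protease that activates corin (-0.33, adjusted p = 0.349).

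Of the enzymes that break down cyclic GMP, the abundant Pde1c fell. This calcium- and calmodulin-dependent phosphodiesterase measured 94.8, 103.2, 123.7, 130.1 and 117.5 CPM over control replicates 1 to 5 and 42.6, 43.1, 53.4 and 50.5 CPM over cKO replicates 1 to 4. Each cKO library had a far lower level than any control (log2 fold change -1.27, SE 0.11, edgeR adjusted p = 1.0e-05), and the change passed in all 20 alternative fits. Pde3a, a cyclic GMP-inhibited phosphodiesterase, rose by 0.39 (SE 0.11, edgeR adjusted p = 0.0369), but passed in only 2 of the 9 fits that left out 1 library, those without control replicate 4 or 5. The cyclic GMP-specific phosphodiesterases Pde5a (0.08) and Pde9a (0.04) did not pass.

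The largest fold changes of the pathway list were of genes with few reads. Pde11a, another phosphodiesterase, had 0 to 8 reads in controls and 15 to 35 in cKO libraries (log2 fold change 2.70, SE 0.52, edgeR adjusted p = 0.0042). Kcnma1, the pore of a calcium-activated potassium channel, had 0 to 9 reads in controls and 11 to 26 in cKO libraries (2.34, SE 0.62, edgeR adjusted p = 0.0220). With 1 library left out, the change of Kcnma1 ranged from 2.01 to 3.19. It no longer passed without cKO replicate 1 (2.14, edgeR adjusted p = 0.0523) or cKO replicate 2 (2.15, edgeR adjusted p = 0.0651). None of the 5 tested genes of other cyclic GMP sources passed, including the subunits of soluble guanylyl cyclase Gucy1a1 (0.03) and Gucy1b1 (0.06), and 6 of 7 tested effectors did not pass, including the cyclic GMP-dependent kinase gene Prkg1 (0.28, adjusted p = 0.39). Pam, an enzyme of atrial secretory granules, rose by 0.32 (SE 0.083, edgeR adjusted p = 0.0195), which no longer passed without control replicate 3 (0.31, edgeR adjusted p = 0.0504), cKO replicate 3 (0.31, edgeR adjusted p = 0.0561) or without cKO replicate 4 (0.28, edgeR adjusted p = 0.0591).

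**Figure D4:**
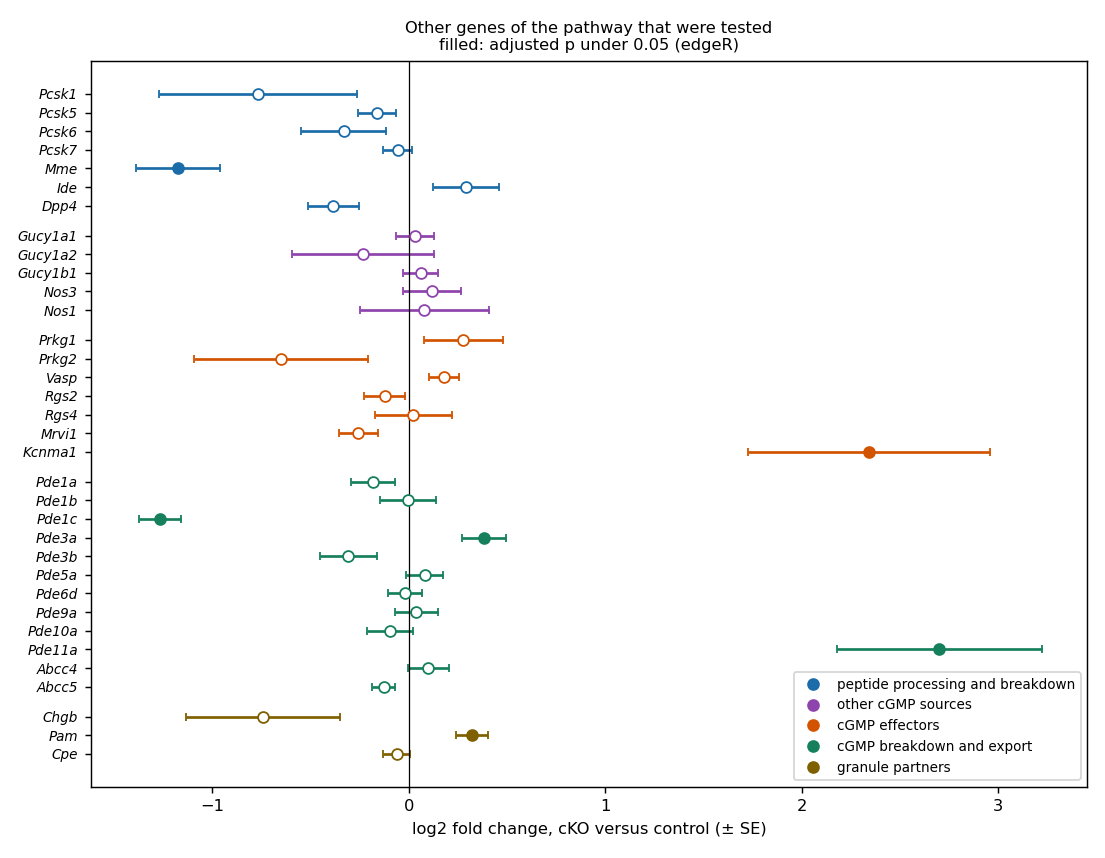
Log2 fold change of cKO against control libraries (± SE, edgeR) for the 34 tested genes of the wider pathway, coloured by role and filled at an adjusted p under 0.05. Most genes lie near 0. Mme and Pde1c stand out to the left, Kcnma1 and Pde11a to the right with wide error bars.

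Transcription factors and cofactors known to act on the Nppa and Nppb promoters were examined as a list of 32 genes, of which 31 were tested. At an adjusted p under 0.05, 2 were higher and 9 lower, and 20 did not pass, beside 8.25% higher and 8.03% lower over all genes, with a median log2 fold change of -0.00. With the 1.5-fold threshold, 1 was called higher and 0 lower, beside 4.01% and 2.72% of all genes. The called gene was Irx5, an Iroquois homeobox factor, at 4.48 to 6.04 CPM in controls and 6.87 to 10.97 CPM in cKO libraries (log2 fold change 0.72, edgeR adjusted p = 0.0094). The activators of Nppa Tbx5 (-0.57, edgeR adjusted p = 0.0023), Hand2 (-0.53, adjusted p = 0.0033), Mef2c (-0.52, adjusted p = 0.0017) and Gata6 (-0.50, adjusted p = 0.00024) fell, and each passed in all 9 fits that left out 1 library. Within the Rps3a3-low libraries alone, Irx5 (0.81, edgeR adjusted p = 0.0685) and Mef2c (-0.42, adjusted p = 0.0838) did not pass. The repressor Tbx3 was at -0.44 (edgeR adjusted p = 0.0473) and passed in 2 of these 9 fits, those without control replicate 1 or cKO replicate 1. Also lower were Tbx20 (-0.42, edgeR adjusted p = 0.0050), Jarid2 (-0.41, adjusted p = 0.0032), Zfpm2 (-0.36, adjusted p = 0.0141) and Mef2d (-0.36, adjusted p = 0.00079). Yap1 was higher (0.18, edgeR adjusted p = 0.0365). Alternative fits of these added regulators are not given here. The GATA factor gene Gata4 (0.02) and the homeobox gene Nkx2-5 (0.40, adjusted p = 0.394) did not pass. Of the regulators that passed, 9 were thus lower and 2 higher, in a list that mixes activators and repressors.

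Of 25 genes in the table within 250 kb of Nppa or Nppb, 17 were tested, and 2 passed at an adjusted p under 0.05 and 15 did not, where 16.3% of all genes passed. Next to Nppb, 2510039O18Rik was at 0.14 (edgeR adjusted p = 0.487), and beyond Nppa the chloride transporter gene Clcn6 was at 0.23 (edgeR adjusted p = 0.251). Agtrap, whose product binds the angiotensin receptor, was between 42.9 and 57.1 CPM in controls and fell to between 32.95 and 37.2 CPM in cKO libraries (log2 fold change -0.47, SE 0.084, edgeR adjusted p = 0.0024). The 1 neighbour that rose was Gm13054, annotated as antisense to Nppa at 148001091 to 148004014 on the minus strand. It had 4 to 11 reads in controls and 20 to 40 in cKO libraries (log2 fold change 2.04, SE 0.35, edgeR adjusted p = 0.0021). Within the Rps3a3-low libraries alone its change did not pass (1.63, edgeR adjusted p = 0.0819). At the same locus Nppa had 3569 to 4035 reads in controls and 22853 to 100438 in cKO libraries. The strand setting of the counting is not given in the sources used here, so reads of Nppa and of Gm13054 may not have been told apart. The antisense gene that overlaps Npr1, Gm16048, had 0 to 19 reads against 1730 to 2644 for Npr1.

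**Figure D5:**
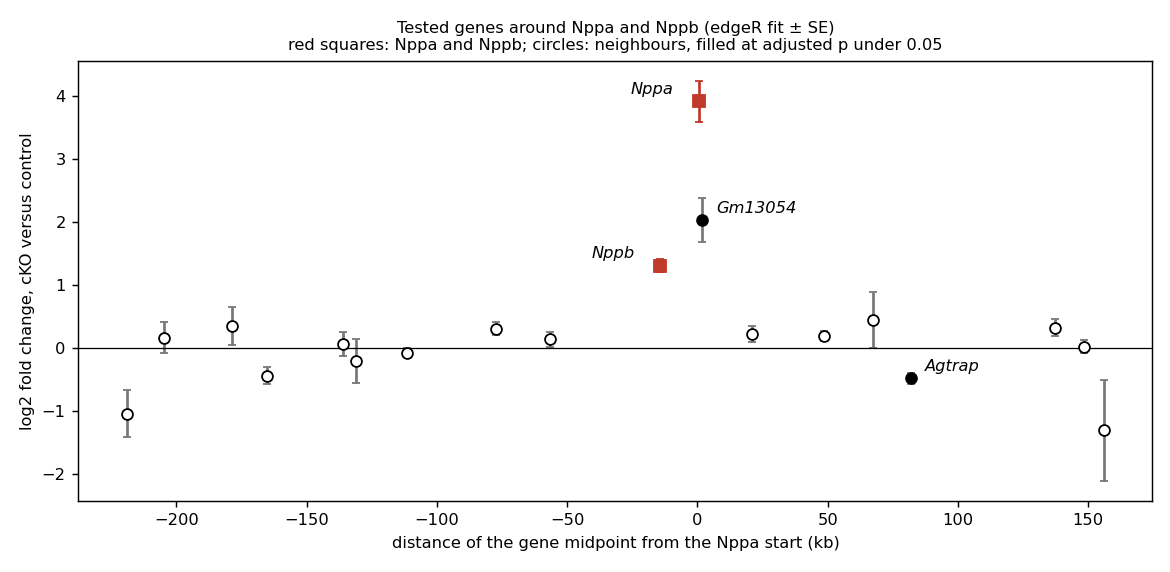
Log2 fold change of cKO against control libraries (± SE, edgeR) for the tested genes within 250 kb of Nppa and Nppb, by the distance of the gene's midpoint from the Nppa start in kb. Red squares are Nppa and Nppb, circles are neighbours, filled at an adjusted p under 0.05. Gm13054, which overlaps Nppa, is the neighbour above 1, and Agtrap is the filled circle below 0.

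The likeness of Nppa and Nppb within the groups was described without a test. After the group means were removed, Pearson's r between them was 0.18 over the 9 libraries. It was 0.54 between Nppb and Npr3 and -0.48 between Nppa and Corin. So few libraries cannot show whether Nppa and Nppb varied separately. The genes most like Nppa among 11011 with a mean of at least 5 CPM were Pdia5 (r = 0.98), Gnb5 (0.98), Me2 (0.96), Hk1 (0.95) and Ahcyl2 (0.95), and none of these 5 passed the test between the groups. This likeness leaned on 2 libraries: without cKO replicates 1 and 4, the libraries farthest from the median of Nppa, r lay between 0.52 and 0.79 for these 5 genes. The level of Pdia5, for instance, was 10.7 CPM in cKO replicate 1 and 14.0 to 15.4 CPM in the other 3 cKO libraries.

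The genes most like Nppb were Ifnlr1 (r = 0.92), Spry4 (0.90), Ccn2 (0.90), Amt (0.89) and Wdr59 (0.88), and r lay between 0.77 and 0.93 without control replicates 2 and 4, the libraries farthest from its median. Of these, Ccn2, a secreted matrix protein gene, rose (log2 fold change 0.74, edgeR adjusted p = 0.0024) and Ifnlr1 fell (-0.51, edgeR adjusted p = 0.0147). Spry4 was at 0.44 (edgeR adjusted p = 0.0471) and passed in 2 of the 9 fits that left out 1 library, those without control replicate 1 or 2. These values of r describe 9 libraries only, and both genes of a pair are scaled by the same library totals.

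Because Nppa is also a gene of atrial and trabecular cardiomyocytes, the markers of these cells are given beside it. Of the 9 tested atrial markers 3 rose and 2 fell, beside 8.25% and 8.03% of all genes, and the 10 listed summed to 860.2 to 1074.5 CPM in controls and 1068.8 to 1215.1 CPM in cKO libraries. Most of this sum was Pam, with a mean of 744.0 CPM in controls and 930.4 CPM in cKO libraries. Myl7, the atrial myosin light chain, was between 29.1 and 65.9 CPM in controls and rose to between 83.6 and 117.4 CPM in cKO libraries (log2 fold change 1.20, edgeR adjusted p = 0.0049), and the others that were higher were Pam, counted above, and Dkk3 (0.31, adjusted p = 0.0379), which passed in 2 of 9 fits that left out 1 library, those without control replicate 1 or 5. Kcnj3 (-4.10) and Stard10 (-1.44) fell. Kcnj3 was at 3.76 CPM in cKO replicate 1 and at 0.822 to 1.13 CPM in cKO replicates 2 to 4. With 1 library left out, its log2 fold change ranged from -4.84 to -3.88. Sln, an atrial regulator of the calcium pump, did not pass (mean 5.72 CPM in controls and 2.43 CPM in cKO libraries, log2 fold change -1.25, edgeR adjusted p = 0.262). It was at 6.28 CPM in cKO replicate 1 and at 0.823 to 1.33 CPM in the other 3 cKO libraries, and without cKO replicate 1 it passed (-2.31, edgeR adjusted p = 0.0083). Bmp10 was near absent in both groups, at 0 to 0.194 CPM in controls and 0 in all 4 cKO libraries, and was not tested. Of 8 trabecular and conduction markers 0 were higher and 2 lower, beside the same shares of all genes, namely Hcn4 (-3.11) and Cpne5 (-1.24), and the 8 summed to 72.8 to 86.1 CPM in controls and 66.0 to 72.3 CPM in cKO libraries.

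Npr3 is known from endocardium, and the endothelial markers beside it were mixed. Of 10 endocardial and endothelial markers 3 were higher (Plvap 1.01, Cytl1 0.75 and Vwf 0.55 on the log2 scale) and 1 lower (Tek, -0.28), beside 8.25% and 8.03% of all genes, and their sums overlapped at 1478.1 to 1598.3 CPM in controls and 1494.7 to 1569.3 CPM in cKO libraries. Vwf did not pass without cKO replicate 2 (0.49, edgeR adjusted p = 0.0511). Within the Rps3a3-low libraries alone, Vwf (0.24, edgeR adjusted p = 0.364), Plvap (0.74, adjusted p = 0.265) and Tek (-0.23, adjusted p = 0.286) did not pass. Of 9 fibroblast markers 4 rose (Col1a1 0.52, Tcf21 0.48, Col1a2 0.40 and Postn 0.33), 0 fell and 5 did not pass, beside 8.25% of all genes that rose, and the sum of the 9 was 7190.3 to 8531.6 CPM in controls and 8770 to 9817.1 CPM in cKO libraries. With 1 library left out, Col1a2 passed in all 9 fits. Tcf21 did not pass without control replicate 3 (0.44, edgeR adjusted p = 0.0504), and Postn did not without control replicate 2 (0.31, edgeR adjusted p = 0.0502) or cKO replicate 4 (0.25, edgeR adjusted p = 0.0601). Col1a1 did not pass without control replicate 3 or 5 or cKO replicate 1, 2 or 3, with edgeR adjusted p from 0.0529 to 0.0946. Within the Rps3a3-low libraries alone, Tcf21 (0.44, edgeR adjusted p = 0.284) and Col1a1 (0.36, adjusted p = 0.230) did not pass. Among 5 epicardial markers Wt1 fell (-0.40), and 0 of 7 mural and 0 of 6 macrophage markers passed. Of the 10 cardiomyocyte markers 2 fell, Pln (-0.45) and Myl2 (-0.43), and 0 rose, beside 8.03% and 8.25% of all genes. The part that these cell types have in the levels of the 8 genes was not tested.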

How the data were processed

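Poly(A)-selected, stranded RNA libraries of 5 control and 4 cKO ventricle samples were compared. The authors deposited 1 table of raw read counts per gene, with 0 columns of other samples. The submitters' processing notes name STAR 2.4.2a, HTSeq 0.6.1 and mm10. The annotation and strand option used for counting are not given in the sources used here, which leaves overlapping antisense genes uncertain. Symbols and positions came from GENCODE M21 on GRCm38, which held 36429 of 38293 identifiers with 99.82% of the counts.

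Genes were kept by filterByExpr (minimum count 10) and tested with edgeR 4.0.16 (R 4.3.3, quasi-likelihood F test, TMM scaling, genotype as the only term, two-sided, Benjamini-Hochberg adjustment over 15318 genes). A call needed a change of more than 1.5-fold and an adjusted p under 0.05, the thresholds of the study. The SE is that of the log2 fold change, computed from F. CPM are counts per 1000000 counts of the TMM-scaled library. Permutation tests were exact, on log2(CPM + 0.5) or on log2 ratios of counts. The fitting code was tested on simulated data.

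The genes named were the 8 members and, from each further list, up to 6 genes of largest change at an adjusted p under 0.05. Neighbours past that threshold, those flanking Nppa and Nppb, and the 5 genes most like each of Nppa and Nppb were also named. The other regulators past it were added after their values were seen. Other genes given with a value that did not pass were picked by role after their values were seen. The members and lists were chosen with earlier results of these data known. Pde2a was not analysed here, and 1 listed marker gene is not reported here. Alternatives were DESeq2 1.42.0, other scalings (RLE, upper quartile, or TMM after removal of the 10 genes with most counts), other filters (none, or a mean of 1 CPM), added terms (replicate number as a block, library set, Xist level), either library set alone and each library left out.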

Additional observations from a re-analysis of the deposited data

Results flagged for a closer look

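In Npr1, control replicate 2 at 76.6 CPM stood above the other controls, with a gap of 0.747 of the group's range on the log2(CPM + 0.5) scale, beyond the critical value of Dixon's test. Also in Npr1, cKO replicate 4 at 50.8 CPM stood below the other cKO libraries, with a gap of 0.857 of the range on that scale, also beyond that value. These were 2 of 20 groups examined, and chance flags about 1 in 20. Without control replicate 2 or without cKO replicate 4, Npr1 still passed the test (edgeR adjusted p over all 9 fits that left out 1 library 0.0040 to 0.0109).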

How the results depend on the processing

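Nppb and Npr1 kept their direction and passed in all 20 alternative fits, and Npr2 passed in none. Nppa passed in 19 and did not in the Rps3a3-low libraries (3.70, edgeR adjusted p = 0.0625), where only 5 libraries enter. Corin passed in DESeq2 (-0.39) and, chosen after seeing the data, in the Rps3a3-high libraries (-0.52), where Furin reversed (0.096, edgeR adjusted p = 0.475) and only 1 cKO library enters. With 1 library left out, log2 fold changes ranged over 0.40 to 0.58 for Npr3 and -0.47 to -0.27 for Corin, and the causes were not tested. The genes called, 1030 in all, came to 620 in the Rps3a3-low libraries (518 shared), to 1361 in the Rps3a3-high libraries (757 shared), where 1 cKO library enters, to 2493 with no fold threshold and to between 909 and 1171 with 1 library left out. The members called, 2, became 4 with no fold threshold. So counted, after seeing the data, the regulators went from 1 to 11 and the neighbours from 1 to 2. By Spearman's rho, 2 of the 5 genes most like Nppa and 3 of the 5 most like Nppb were shared. Replicate numbers did not pair the libraries: same-number correlations of deviations were -0.05, 0.067, -0.01 and 0.30. With the replicate number as a block, 879 genes were called and 3 members, Npr3 being added (0.59, edgeR adjusted p = 0.0062), and among the other genes named Tek, Plvap, Cpne5, Ifnlr1, Kcnma1 and Tbx3 did not pass. A term for the library set gave 1166 genes and the same 3 members called (Npr3 0.62, edgeR adjusted p = 0.0011). Among the other genes named, Pln, Wt1, Cpne5, Ifnlr1, Spry4, Dkk3 and Tbx3 also did not pass in the Rps3a3-low libraries, and Myl7, Ccn2, Cytl1, Ifnlr1, Col1a1, Dkk3, Pde3a and Kcnma1 did not in the Rps3a3-high libraries. Low read numbers widen the error for Nppc and other genes under 1 CPM.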
